A study of Mus with 21 samples.

Results

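The 10 genes described here, Oas2, Oas3, Oasl1, Oasl2, Ifit1, Ifit1bl1, Ifit2, Ifit3, Isg15 and Rsad2, are antiviral effector genes that type I interferon induces. They were taken by symbol from count tables of 18806 genes, where 10 of 10 were found, and 10 of 10 passed the filter on low counts in every comparison. RNA-seq was performed on skin wounds collected on Day 4, with 21 libraries in 7 groups of 3. The labels call the libraries of a group biological replicates, and whether each came from a different mouse is not stated. All mice were wild-type female C57BL/6 animals, 8 weeks old, each carrying splinted full-thickness wounds of 8 mm in the dorsal skin. In 6 groups the wound was filled with a GelMA hydrogel, a gelatin network set by light, at pH 6.4, 7.4 or 8.4, with 200 ng of acidic fibroblast growth factor (aFGF) or basic fibroblast growth factor (bFGF). Each of these groups is called by its pH and its factor (6.4/aFGF and so on). Control wounds received no hydrogel scaffold, so the hydrogel and its growth factor cannot be told apart in a comparison with control. The question asked of these genes was how their levels differed with the pH of the hydrogel, with the growth factor and with the presence of a hydrogel.

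Type I interferons bind a receptor made of Ifnar1 and Ifnar2, and the signal passes through Jak1 and Tyk2 to a transcription factor complex that holds Stat2 and Irf9 and switches on the effector genes. The Oas enzymes sense viral RNA and make oligoadenylates that set off the breakdown of RNA, the Ifit proteins bind foreign RNA and hold back its translation, Isg15 is a ubiquitin-like protein that is joined to other proteins, and Rsad2 (viperin) makes a nucleotide that stops viral RNA synthesis. In wounded skin, plasmacytoid dendritic cells are known as an early source of type I interferon. These genes are used as a readout of interferon exposure in many cell types of the skin, including keratinocytes, fibroblasts, macrophages and neutrophils.

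Levels are given as CPM (counts scaled to library size, after TMM scaling over the 21 libraries), and levels of different genes are compared as FPKM (the deposited values, scaled to gene length and library size). Total counts were 34362558 to 37817833 per library, and the 10 genes together took 0.0255% to 0.132% of a library's counts. The lowest count of any of them was 51 (Ifit1bl1 in 8.4/aFGF replicate 1), so none was near the limit of detection. The skin markers Krt5, Krt14, Col1a1 and Col3a1 were counted in 21 of 21 libraries. In 3 libraries, genes of another tissue stood apart. The summed level of 9 cartilage and bone genes was 198 CPM in 7.4/aFGF replicate 3 against at most 9.79 CPM elsewhere. That of 8 ovary and oviduct genes was 481 CPM in 8.4/bFGF replicate 2 against at most 25.7 CPM elsewhere. The summed level of 7 liver genes was 77.7 CPM in 8.4/aFGF replicate 2 against at most 33.4 CPM elsewhere. This library stood apart less clearly, since the liver sum was 33.4 CPM in 6.4/aFGF replicate 1 and 29.1 CPM in 7.4/aFGF replicate 1. The liver gene Fgb was highest in 6.4/aFGF replicate 1 (31.3 CPM). The comparisons that use these libraries were also computed without them. In bulk tissue, fewer cells of a type and less RNA per cell cannot be told apart. Ifit1 and Ifit1bl1, Ifit3 and Ifit3b, and Oasl1 and Oasl2 are similar in sequence, and how reads shared by such copies were counted is not given in the sources used here, so the split between them is uncertain.

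Per kilobase, Isg15 was the most abundant of the 10 genes and Ifit1bl1 the least. Mean FPKM over the 21 libraries was 100.4 for Isg15, 43.7 for Oasl2, 18.6 for Ifit1, 17.9 for Ifit3 and 16.9 for Oasl1. Oas2, Rsad2, Oas3 and Ifit2 lay close together, with mean FPKM values of 13.3, 13.1, 12.7 and 11.2, and Ifit1bl1 was at 2.54. The range across libraries was widest for Ifit1bl1, from 1.59 to 31.3 CPM (19.7-fold), and narrowest for Oasl2, from 60.7 to 286 CPM (4.71-fold). Differences between group means made up 46.6% (Oas2) to 62.7% (Rsad2) of a gene's variation in log2 CPM, and the rest lay between libraries of a group. With 7 groups of 3 libraries, a sizeable share arises even where groups do not differ. These shares therefore overstate any effect of the groups.

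**Figure D1:**
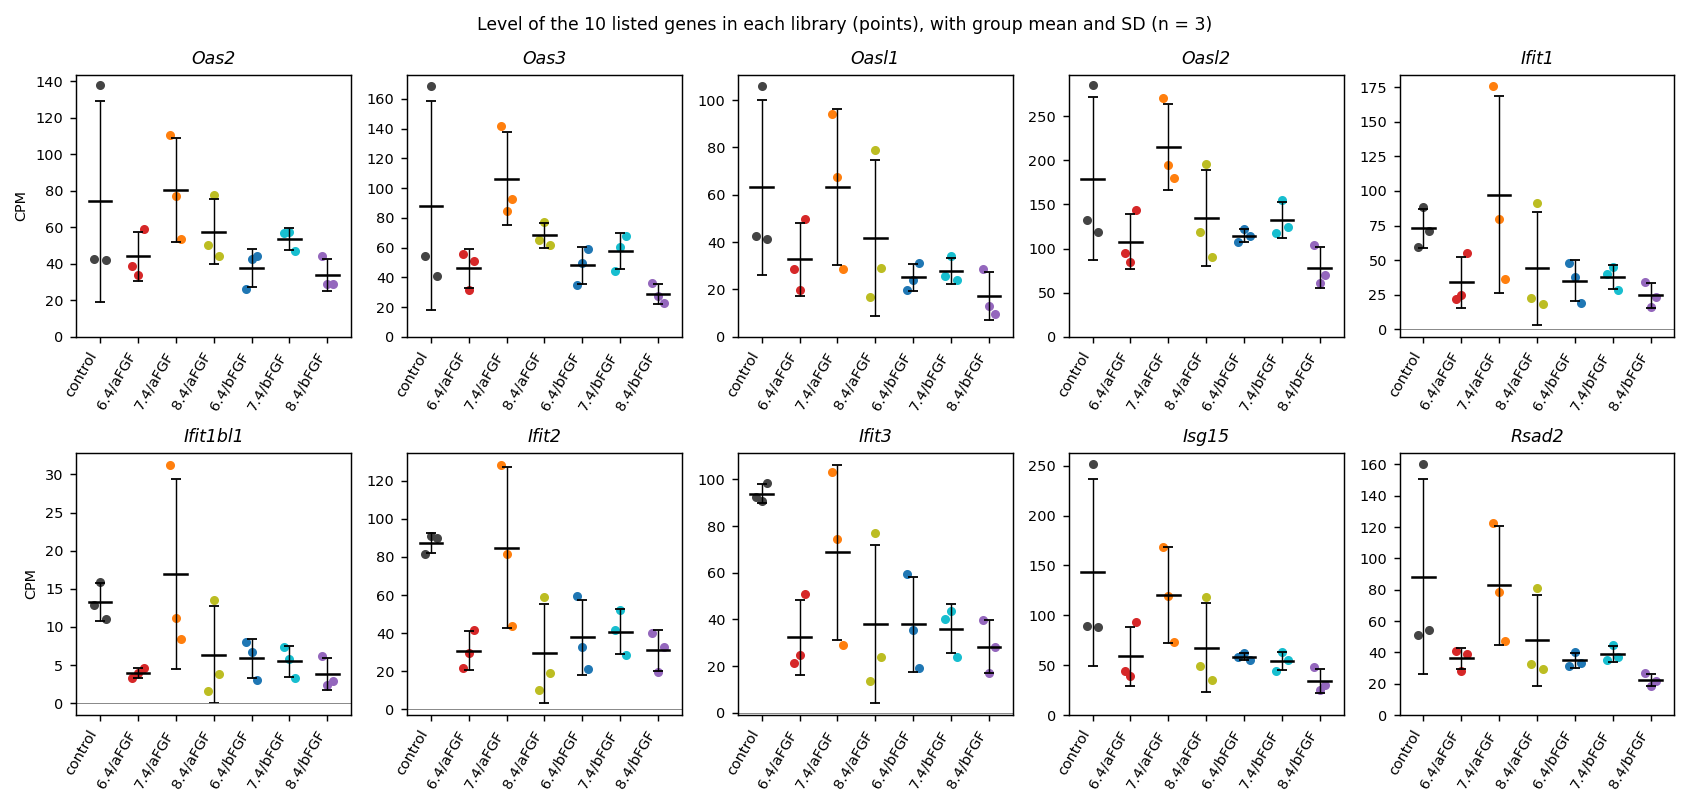
CPM (vertical axis of each panel) of the 10 genes in each library (points) of the 7 groups (horizontal axis), with the group mean (horizontal bar) and SD (vertical bar, n = 3). Control replicate 2 and 7.4/aFGF replicate 1 hold the highest point of every panel, while the 3 control points of Ifit2 and Ifit3 lie close together.

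The Oas genes were highest in control replicate 2, followed by 7.4/aFGF replicate 1. Oas3, which makes long oligoadenylates, was at 54.5, 169 and 40.8 CPM in control replicates 1, 2 and 3. In the aFGF groups Oas3 was at 55.9, 31.2 and 51.1 CPM at pH 6.4, at 142, 84.4 and 93.0 CPM at pH 7.4, and at 65.1, 77.5 and 62.1 CPM at pH 8.4. In the bFGF groups it was at 35.0, 49.9 and 59.2 CPM at pH 6.4, at 44.5, 60.5 and 67.9 CPM at pH 7.4, and at 36.5, 27.4 and 22.8 CPM at pH 8.4. Thus the 3 libraries of 7.4/aFGF were above every other hydrogel library for Oas3, whereas control spanned almost the whole range. Oas2, the enzyme encoded beside Oas3, had 42.7, 138 and 42.1 CPM in control, 111, 77.3 and 53.5 CPM in 7.4/aFGF and 44.1, 28.8 and 29.2 CPM in 8.4/bFGF. Oasl1, an Oas-like protein without enzyme activity that is known to limit Irf7 translation, had 42.5, 106 and 41.1 CPM in control, 94.1, 67.5 and 28.5 CPM in 7.4/aFGF and 16.9, 79.0 and 29.0 CPM in 8.4/aFGF. Oasl2, its catalytically active relative, had 132, 286 and 119 CPM in control and 270.2, 194 and 179.7 CPM in 7.4/aFGF. In all 4 of these genes control replicates 1 and 3 lay close together and replicate 2 lay far above them.

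The Ifit genes showed another order of libraries. Ifit3 was at 92.6, 90.8 and 98.4 CPM in control, and the mean was 93.9 ± 3.97 CPM (SD, n = 3). It was at 21.3, 24.6 and 50.9 CPM in 6.4/aFGF, at 103, 74.4 and 28.8 CPM in 7.4/aFGF and at 13.6, 76.8 and 23.7 CPM in 8.4/aFGF. With bFGF, Ifit3 was at 59.4, 35.4 and 19.0 CPM at pH 6.4, at 40.0, 43.8 and 24.0 CPM at pH 7.4 and at 39.6, 17.1 and 28.1 CPM at pH 8.4. The control libraries were therefore alike for Ifit3, and of 18 hydrogel libraries 1 (7.4/aFGF replicate 1) lay above the lowest of them. Ifit2, known for binding AU-rich RNA, had 81.3, 90.7 and 89.95 CPM in control, 128, 81.7 and 44.0 CPM in 7.4/aFGF and 21.5, 29.4 and 41.7 CPM in 6.4/aFGF. Ifit1, which binds the cap of foreign RNA, had 59.8, 88.1 and 71.1 CPM in control, 175, 79.8 and 36.6 CPM in 7.4/aFGF and 23.0, 91.0 and 18.1 CPM in 8.4/aFGF. Ifit1bl1, a copy of Ifit1, had 12.9, 15.9 and 11.0 CPM in control, 31.3, 11.1 and 8.37 CPM in 7.4/aFGF and 3.33, 3.95 and 4.61 CPM in 6.4/aFGF. In each of the 4 Ifit genes the highest of 21 libraries was 7.4/aFGF replicate 1, whereas in each of the other 6 genes it was control replicate 2.

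Isg15 was at 89.8, 251 and 88.1 CPM in control, at 169, 119 and 73.1 CPM in 7.4/aFGF and at 44.3, 39.2 and 92.8 CPM in 6.4/aFGF. Rsad2 was at 50.9, 160.3 and 54.2 CPM in control, at 123, 78.5 and 47.2 CPM in 7.4/aFGF and at 41.0, 28.5 and 38.9 CPM in 6.4/aFGF. Both genes thus had the control pattern of the Oas genes, with replicate 2 far above the others. At the low end, 8.4/bFGF replicate 2, the library with ovary and oviduct genes, ranked among the lowest 3 of 21 libraries in 10 of 10 genes, and 8.4/bFGF replicate 3 did so in 7 of 10. The library with liver genes, 8.4/aFGF replicate 2, ranked among the highest 3 in 6 of 10 genes.

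By group mean, 7.4/aFGF and control were the highest groups for each of the 10 genes. The mean was highest in 7.4/aFGF for Oas2, Oas3, Oasl1, Oasl2, Ifit1 and Ifit1bl1, and highest in control for Ifit2, Ifit3, Isg15 and Rsad2. The lowest mean was in 8.4/bFGF for each gene other than Ifit2, whose lowest mean was in 8.4/aFGF. Neighbours in the order of group means overlapped in their libraries in every gene, except that the Rsad2 libraries of 6.4/bFGF (31.3 to 40.5 CPM) lay above those of 8.4/bFGF (18.8 to 26.6 CPM). In an F test of any difference between the 7 group means (edgeR's quasi-likelihood test with Benjamini-Hochberg adjustment), 0 of 10 genes passed an adjusted p of 0.05, where 0.114% of the 15811 genes tested did. The smallest adjusted p was 0.113 for Rsad2, followed by 0.135 for Oas3 and 0.143 for Isg15. An unadjusted p under 0.05 was found for 8 of the 10 genes and for 19.3% of all genes tested. DESeq2 called 7 of the 10 and 2030 genes in all, and edgeR without control replicate 2 called Oas3 and Rsad2 among 864 genes, so this count depended on the tool and on that library.

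In the contrast that the study made from its sequencing, 6.4/aFGF against 7.4/aFGF, all 10 genes had lower levels at pH 6.4, and none passed the test. The median log2 fold change of the 10 was -1.14, against 0.02 over all genes tested. The mean of Oas3 was 46.1 ± 13.1 CPM in 6.4/aFGF and 106 ± 31.0 CPM in 7.4/aFGF (SD, 3 libraries a group), and its log2 fold change was -1.21 (SE 0.28, edgeR adjusted p = 0.832). Oas3 is among the genes that the study picked in this same contrast, so its difference is not independent evidence. Ifit1bl1 had the largest difference, from 3.96 ± 0.641 CPM to 16.9 ± 12.5 CPM, a log2 fold change of -2.09 (SE 0.51). The values of the remaining genes ran from -0.86 (Oas2) to -1.51 (Ifit1), with -1.03 for Isg15 and -1.19 for Rsad2.

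After adjustment with edgeR, 0 of 10 genes were called in this contrast (a call needed an adjusted p under 0.05 together with a difference of over 0.58 on the log2 scale), as were 0% of 15019 genes, and all 10 had an adjusted p of 0.832. At an unadjusted p under 0.05, 8 of the 10 were lower in 6.4/aFGF (Oasl1 and Ifit3 were the exceptions), against 2.86% of all genes. DESeq2 called Oas3 and Ifit1bl1 among 20 genes. The libraries of the groups did not overlap for Oas3, Oasl2, Ifit1bl1, Ifit2 and Rsad2, each lower in 6.4/aFGF, against 4.84% of all genes. For Oas2, Oasl1, Ifit1, Ifit3 and Isg15 the groups overlapped, since 6.4/aFGF replicate 3 lay above 7.4/aFGF replicate 3, the highest and the lowest library of their groups. Without 7.4/aFGF replicate 3, the library with cartilage and bone genes, the median log2 fold change was -1.37 and 10 of 10 genes had an unadjusted p under 0.05. Without 7.4/aFGF replicate 1, the median was -0.80 and 5 of 10 did. Deviations of same-numbered libraries of these groups from their group means were weakly correlated (r of 0.103 to 0.265), though the labels state no pairing. With the replicate number as a block, 5 of 10 had an unadjusted p under 0.05 and the median was -1.10. The shares of all genes under that p in these alternative fits are not given here, so these counts cannot be set against them.

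At pH 8.4 with aFGF, the 10 genes also had lower levels than in 7.4/aFGF, with a median log2 fold change of -0.81, and the libraries of 8.4/aFGF were spread widely. Ifit2 was at 9.92, 59.0 and 19.1 CPM in 8.4/aFGF, and its log2 fold change was -1.52 (SE 0.69, edgeR adjusted p = 1.00). Oas3 was the gene whose groups did not overlap, lower in 8.4/aFGF (3.71% of all genes), with a log2 fold change of -0.65 (SE 0.21, edgeR adjusted p = 1.00). With edgeR, 0 of 10 genes were called, as were 0% of 14968 genes, and 1 of 10 (Oas3) was lower at an unadjusted p under 0.05, against 2.22% of all genes. DESeq2 also called 0 of 10. In 8.4/aFGF the highest library for all 10 genes was replicate 2, the library with liver genes. Replicates 1 and 3 also differed, as in Ifit2 (9.92 and 19.1 CPM). Without the libraries of other tissues (8.4/aFGF replicate 2 and 7.4/aFGF replicate 3), which leaves 2 libraries a group, the median log2 fold change was -1.79. In that fit 10 of 10 genes had an unadjusted edgeR p under 0.05, with a smallest adjusted p of 0.609. The share of all genes under that unadjusted p in this fit is not given here, so the count cannot be set against it. The median was -0.43 without 7.4/aFGF replicate 1, and it was -0.59 and -0.55, with 0 of 10 genes at an unadjusted p under 0.05, without 8.4/aFGF replicate 1 or 3.

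Between 6.4/bFGF and 7.4/bFGF the 10 log2 fold changes ran from -0.49 to 0.13, with a median of -0.11, and 7 were negative and 3 positive. By edgeR, 0 of 10 were called, as were 0% of 14976 genes, and 0 of 10 had an unadjusted p under 0.05, against 8.89% of all genes. DESeq2 called 0 of 10. Oas2 was the gene whose groups did not overlap, with 26.0, 42.9 and 44.5 CPM in 6.4/bFGF below 57.0, 57.5 and 46.9 CPM in 7.4/bFGF (8.07% of all genes were lower without overlap). The 95% interval of the log2 difference was -0.79 to 0.32 in Oas3 and -0.95 to 1.14 in Ifit3.

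At pH 8.4 with bFGF, all 10 genes had lower levels than in 7.4/bFGF, with a median log2 fold change of -0.63. Mean Oas3 was 28.9 ± 6.98 CPM in 8.4/bFGF and 57.6 ± 12.0 CPM in 7.4/bFGF (SD, 3 libraries a group), and its log2 fold change was -0.97 (SE 0.22, edgeR adjusted p = 0.861). Mean Rsad2 was 22.5 ± 3.94 CPM and 38.9 ± 4.98 CPM, with a log2 fold change of -0.77 (SE 0.17, edgeR adjusted p = 0.861). The Ifit genes had smaller differences, from -0.33 for Ifit3 to -0.60 for Ifit1. In edgeR's test, 0 of 10 genes were called, as were 0% of 15092 genes, while 5 of 10 (Oas2, Oas3, Oasl2, Isg15 and Rsad2) were lower at an unadjusted p under 0.05, against 2.99% of all genes. DESeq2 called Oas3 and Rsad2 among 27 genes. The groups did not overlap for Oas2, Oas3, Oasl2 and Rsad2 (7.19% of all genes were lower without overlap). Without 8.4/bFGF replicate 2, the library with ovary and oviduct genes, the median was -0.48 and 3 of 10 genes had an unadjusted p under 0.05.

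Whether the pH 6.4 difference itself differed between the growth factors was tested as an interaction over 12 libraries. All 10 genes had a more negative difference with aFGF, with a median log2 interaction of -1.11 and a range from -0.38 (Oas2) to -2.21 (Ifit1bl1). With edgeR, 0 of 10 were called, as were 0% of 15449 genes, and the smallest adjusted p was 0.804. At an unadjusted p under 0.05, 5 of 10 genes were lower (Oas3, Oasl2, Ifit1bl1, Isg15 and Rsad2), against 2.34% of all genes. DESeq2 called 0 of 10. These counts depended on single libraries. Leaving out 1 library gave 1 to 9 genes at an unadjusted p under 0.05 and medians from -1.46 to -0.71. Without 7.4/aFGF replicate 3 it was 9 genes (median -1.37), as many as without 6.4/aFGF replicate 3, and it was 1 gene without 7.4/aFGF replicate 1 (median -0.71), 6.4/aFGF replicate 2 or 6.4/bFGF replicate 2. A fit over 21 libraries also gave 1 gene. The matching shares of all genes in these alternative fits are not given here. The pH 6.4 difference was therefore not shown to differ between aFGF and bFGF.

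**Figure D2:**
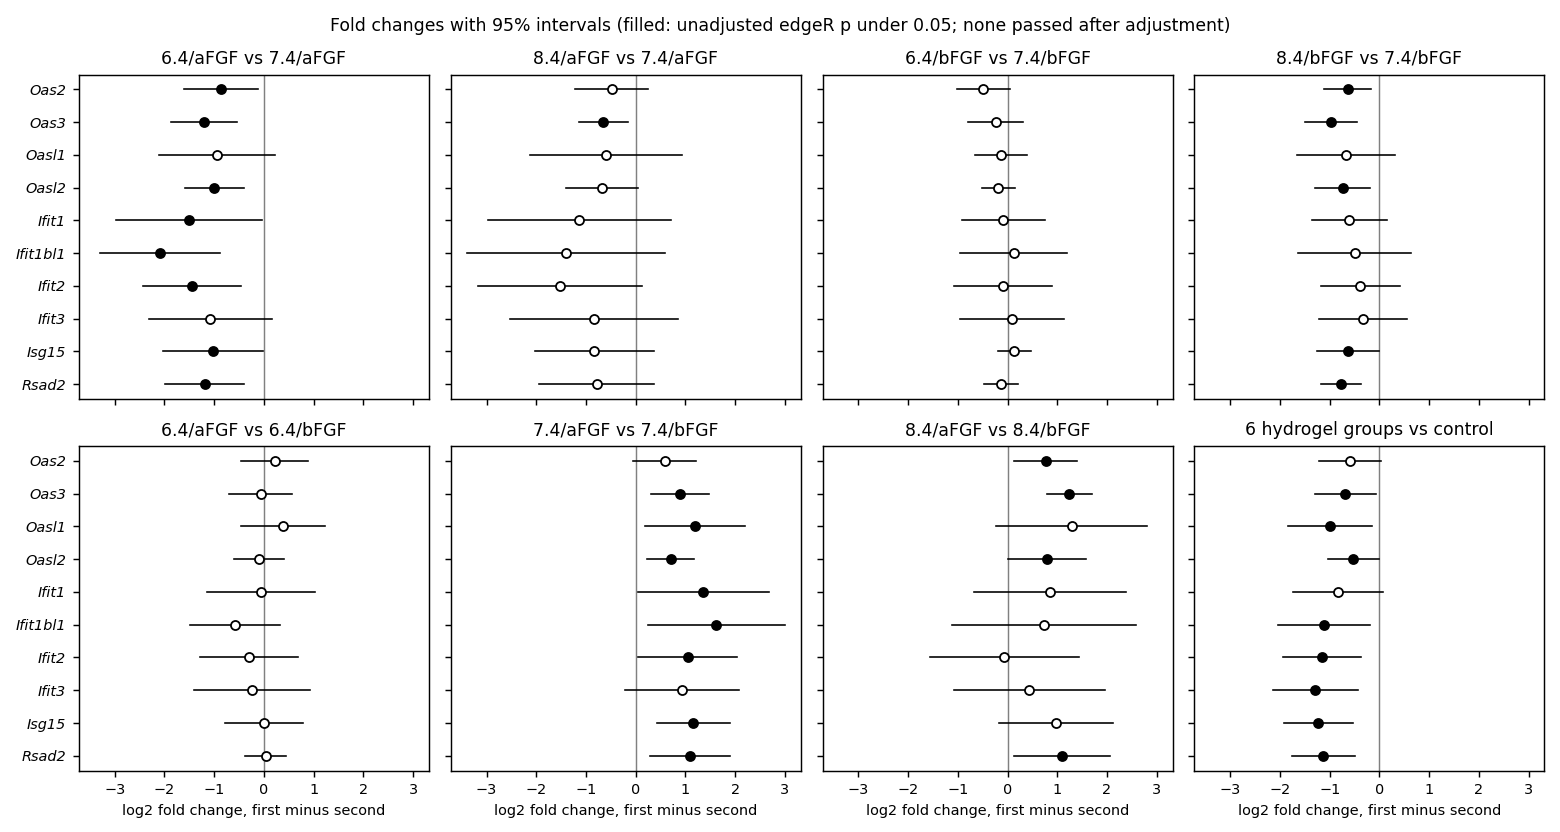
Log2 fold changes of the 10 genes (horizontal axis, the group named first minus the other) with 95% intervals (lines) from edgeR in 8 comparisons, with filled points at an unadjusted p under 0.05. The 10 points lie below 0 in 4 of the 8 panels and above 0 in 7.4/aFGF against 7.4/bFGF, and none of the genes was called after adjustment.

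The growth factors were compared at matched pH. At pH 6.4 the 10 genes had log2 fold changes between aFGF and bFGF from -0.58 to 0.38 and a median of -0.06. By edgeR, 0 of 10 were called, as were 0% of 14994 genes, and 0 of 10 had an unadjusted p under 0.05, against 8.16% of all genes. DESeq2 called 0 of 10. Without 6.4/aFGF replicate 3 the median was -0.45, with 10 of 10 genes lower with aFGF and 2 at an unadjusted p under 0.05, and without 6.4/aFGF replicate 2 it was 0.12. The 95% intervals were wide for the Ifit genes, from -1.40 to 0.93 for Ifit3, and narrow for Rsad2, from -0.37 to 0.45.

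At pH 7.4 the 10 genes had higher levels with aFGF than with bFGF, with a median log2 fold change of 1.07 and a range from 0.58 (Oas2) to 1.62 (Ifit1bl1). Isg15 was at 120.4 ± 47.8 CPM with aFGF and 54.1 ± 9.13 CPM with bFGF (SD, 3 libraries a group). Its log2 fold change was 1.15 (SE 0.30, edgeR adjusted p = 0.351). Oas3 had a log2 fold change of 0.89 (SE 0.24) and Oasl2 one of 0.70 (SE 0.19), both with the same adjusted p. In edgeR's test, 0 of 10 genes were called, as were 0% of 15049 genes, while 8 of 10 (Oas2 and Ifit3 were the exceptions) were higher at an unadjusted p under 0.05, against 6.57% of all genes. DESeq2 called Oas3 and Isg15 among 264 genes. The groups did not overlap for Oas3, Oasl2, Ifit1bl1, Isg15 and Rsad2 (8.66% of all genes were higher without overlap). The 7.4/aFGF libraries are the same ones as in the pH contrasts above, so these comparisons share samples. Without 7.4/aFGF replicate 3 the median was 1.36, and without 7.4/aFGF replicate 1 it was 0.63.

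At pH 8.4 the Oas genes, Isg15 and Rsad2 had higher levels with aFGF than with bFGF. Apart from Oas3, the size of these differences depended on the library with liver genes. The direction of Ifit1, Ifit1bl1 and Ifit3 depended on it too. Oas3 was at 68.2 ± 8.19 CPM with aFGF and 28.9 ± 6.98 CPM with bFGF, a log2 fold change of 1.24 (SE 0.19, edgeR adjusted p = 0.0714). Rsad2 had a log2 fold change of 1.10 (SE 0.41, edgeR adjusted p = 0.196) and Oas2 one of 0.76 (SE 0.27, edgeR adjusted p = 0.183). For Ifit1, Ifit1bl1, Ifit2 and Ifit3 the values were 0.85, 0.74, -0.07 and 0.44. With edgeR, 0 of 10 genes were called, against 0.00665% of 15041 genes (1 gene), and 4 of 10 (Oas2, Oas3, Oasl2 and Rsad2) were higher at an unadjusted p under 0.05, against 11.7% of all genes. DESeq2 called Oas3 among 949 genes. The groups did not overlap for Oas2, Oas3 and Rsad2 (14.9% of all genes were higher without overlap).

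Without 8.4/aFGF replicate 2 and 8.4/bFGF replicate 2, which leaves 2 libraries a group, the median log2 fold change at pH 8.4 was 0.18. Oas3 was then at 1.09 (edgeR adjusted p = 0.244), whereas Ifit1, Ifit1bl1 and Ifit3 turned to -0.50, -0.75 and -0.87 and Ifit2 was at -1.34. Oas2, Oasl1, Oasl2, Isg15 and Rsad2 fell to 0.37, 0.25, 0.25, 0.10 and 0.35. The remaining libraries of 8.4/aFGF thus had more Oas3 and less Ifit3 than those of 8.4/bFGF.

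Over the 3 pH values together, all 10 genes had higher levels with aFGF, with a median log2 fold change of 0.64. This mean did not hold at each pH. At pH 6.4 the median was -0.06, with 6 of 10 genes lower with aFGF, against medians of 1.07 at pH 7.4 and 0.82 at pH 8.4. The values were 0.74 for Rsad2 (SE 0.25, edgeR adjusted p = 0.0671), 0.69 for Oas3 (SE 0.23, edgeR adjusted p = 0.0674) and 0.95 for Oasl1 (SE 0.33, edgeR adjusted p = 0.0727). Ifit2 had the smallest difference, 0.23, which turned to -0.11 without 8.4/aFGF replicate 2. By edgeR, 0 of 10 genes were called, against 3.2% of 15811 genes, and 6 of 10 (Oas2, Oas3, Oasl1, Oasl2, Isg15 and Rsad2) were higher at an unadjusted p under 0.05, against 14.7% of all genes. DESeq2 called Oas3, Oasl1 and Rsad2 among 777 genes. Adjusted p-values lay so close to the threshold that leaving out 1 library could bring calls. Rsad2 and Oas3 were called without control replicate 2, Oas3 without control replicate 3, Oasl1 and Rsad2 without 7.4/aFGF replicate 3, Rsad2 without 8.4/aFGF replicate 3 and Oasl1 without 8.4/bFGF replicate 1. Without the 3 libraries of other tissues the median was 0.44 and none of the 10 was called.

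The 6 hydrogel groups together had lower levels than control in all 10 genes, with a median log2 fold change of -1.05. The values were -1.29 for Ifit3 (SE 0.40), -1.23 for Isg15 (SE 0.33), -1.15 for Ifit2 (SE 0.37) and -1.13 for Rsad2 (SE 0.30). In edgeR's test, 0 of 10 genes were called, against 0.00632% of 15811 genes (1 gene), and the smallest adjusted p were 0.127 for Rsad2 and 0.128 for Isg15. At an unadjusted p under 0.05, 8 of 10 genes were lower (Oas2 and Ifit1 were the exceptions), against 10.4% of all genes. DESeq2 called Isg15 and Rsad2 among 171 genes. In 0 of 10 genes did the 18 hydrogel libraries lie apart from the 3 control libraries, as they did in 0.607% of all genes.

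The 10 genes depended to different degrees on control replicate 2. Without that library, the log2 fold changes of the Oas genes were 0.21 for Oas2, 0.20 for Oas3, -0.39 for Oasl1 and -0.02 for Oasl2, so Oas2 and Oas3 turned direction. Those of the Ifit genes were -1.31 for Ifit3, -1.13 for Ifit2, -0.97 for Ifit1bl1 and -0.67 for Ifit1, and Isg15 and Rsad2 were at -0.54 and -0.38. None of the 10 was called in that fit (smallest edgeR adjusted p = 0.0869, for Ifit3), and the median was -0.47. An unadjusted edgeR p under 0.05 was found for 2 of 10, against 4591 of the 16069 genes tested in that fit. Over all genes, 1189 were called without that library. In numbers of libraries, 13 of 18 hydrogel libraries were above the lowest control library for Oas2 and Oas3, 8 for Oasl2, 4 for Oasl1 and Isg15, 3 for Rsad2, Ifit1 and Ifit1bl1, 2 for Ifit2 and 1 for Ifit3. Without the 3 libraries of other tissues, the log2 fold changes against control ran from -0.54 (Oasl2) to -1.35 (Ifit3), with a median of -1.11.

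The heat map of centred levels shows the libraries in which the genes moved together and those in which they did not. Pearson's r between the log2 CPM of pairs of these genes over the 21 libraries was 0.903 to 0.959 for the 6 pairs of Ifit genes and 0.801 to 0.954 for the 15 pairs without an Ifit gene. For the 24 pairs with an Ifit gene and another gene it was 0.391 to 0.894. The closest pair was Ifit2 and Ifit3 (r = 0.959) and the least alike was Oas3 and Ifit3 (r = 0.391). With group means removed, the closest pair kept an r of 0.979 and that of Oas3 and Ifit3 was 0.0434. Without the 3 libraries of other tissues, a choice made after seeing the data, r was 0.909 to 0.973 for pairs of Ifit genes, 0.785 to 0.944 for pairs without one and 0.330 to 0.876 for mixed pairs. These correlations are descriptions over 21 libraries that share the groups, with no test.

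**Figure D3:**
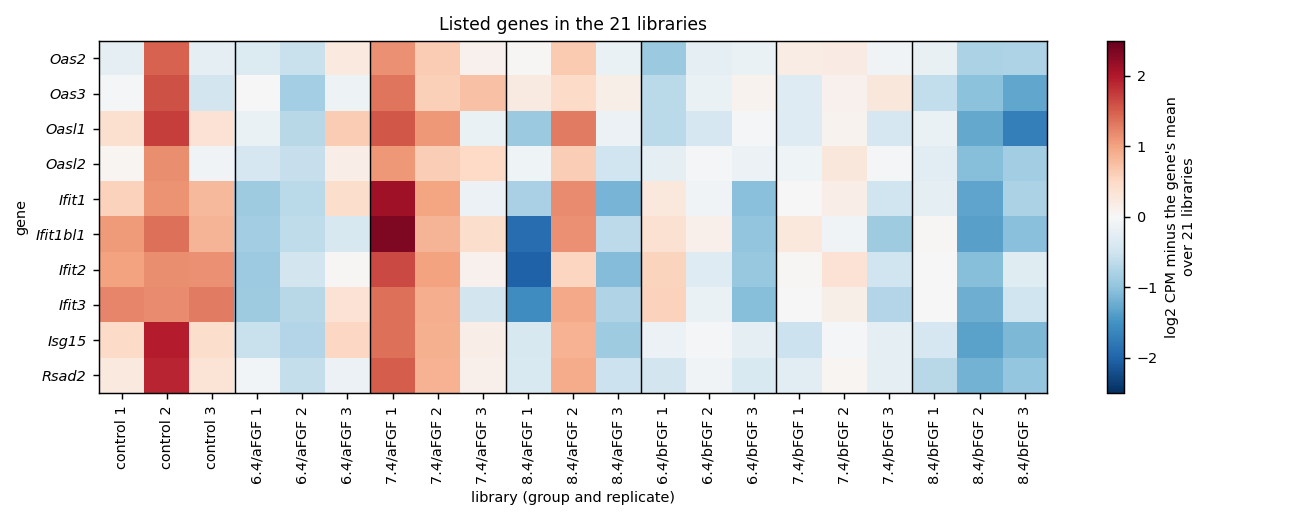
Log2 CPM of each of the 10 genes (rows) in each of the 21 libraries (columns, by group and replicate), minus the gene's mean over the libraries (color scale, log2 units). Control replicate 2 and 7.4/aFGF replicate 1 are high in every row, 8.4/bFGF replicate 2 is low in every row, and control replicates 1 and 3 and 8.4/aFGF replicate 1 differ between the Ifit rows and those of Oas2 and Oas3.

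In the reference order of genes, Oas2 and Oas3 are neighbours, as are Oasl1 and Oasl2, and the Ifit genes stand in a row in the order Ifit2, Ifit3, Ifit1bl1, Ifit3b, Ifit1bl2 and Ifit1. Isg15 and Rsad2 stand elsewhere, with Cmpk2 beside Rsad2. The 10 genes most like the mean of the listed genes, among 15801 others, were Xaf1, Zbp1, Stat2, Usp18, Ifi206, Parp12, Znfx1, Cmpk2, Ifi213 and Irf7, with Pearson's r of 0.943 to 0.968 over 21 libraries. With group means removed the r of these genes was 0.901 to 0.962. Of the listed genes, Isg15 and Rsad2 were closest to their common mean (r = 0.963 and 0.953), and Oas3 was farthest (r = 0.766).

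The balance of Oas3 and Ifit3 differed widely between libraries of a group. The ratio of their CPM ran from 0.414 in control replicate 3 to 4.78 in 8.4/aFGF replicate 1. In control it was 0.589, 1.86 and 0.414, in 7.4/aFGF 1.38, 1.13 and 3.23, and in 6.4/bFGF 0.588, 1.41 and 3.11. The groups thus overlapped in this ratio, and the differences were between libraries. The summed level of 7 neutrophil genes (S100a8, S100a9, Cxcr2, Retnlg, Ly6g, Mmp8 and Csf3r) also differed between libraries. It ran from 716 CPM in control replicate 3 to 12496 CPM in 7.4/bFGF replicate 3. S100a8 (300 to 4483 CPM) and S100a9 (339 to 5912 CPM) reached the highest levels on this list, both in 7.4/bFGF replicate 3. Ly6g was at 0.441 to 44.8 CPM. The sum therefore mostly follows S100a8 and S100a9, and the genes of the list were not compared with the ratio singly. In 6 of 7 groups, the library with the highest neutrophil sum also had the highest ratio, and 8.4/aFGF was the exception.

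Over the 21 libraries, the log2 ratio of Oas3 to Ifit3 and the log2 neutrophil sum had a Pearson's r of 0.856 and a Spearman's rho of 0.888 (permutation p = 2e-05 for both, the smallest that 100000 resamples can give). The Benjamini-Hochberg adjusted p was 0.00016 over 8 cell type lists tried. Without the 2 libraries farthest from the median neutrophil sum, control replicates 3 and 1, r was 0.838, without the 3 libraries of other tissues it was 0.882, and with group means removed it was 0.864. This pair of genes was chosen after their values had been seen, as the least alike pair. The p-values for its ratio do not cover that choice, and the permutations did not keep libraries within their groups. For all 24 ratios of another listed gene to an Ifit gene, r with the neutrophil sum was positive, from 0.484 to 0.872. These ratios share genes and are not independent. Taken alone, Ifit1, Ifit1bl1, Ifit2 and Ifit3 had r of -0.513, -0.516, -0.637 and -0.700 with the neutrophil sum. Oas3 was at 0.200 and Oas2 at 0.0657, while Oasl1, Oasl2, Isg15 and Rsad2 were at -0.238, -0.107, -0.287 and -0.175. With group means removed, Oas3 was at 0.634 and Ifit3 at -0.593. The part of neutrophils in these levels was not tested.

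**Figure D4:**
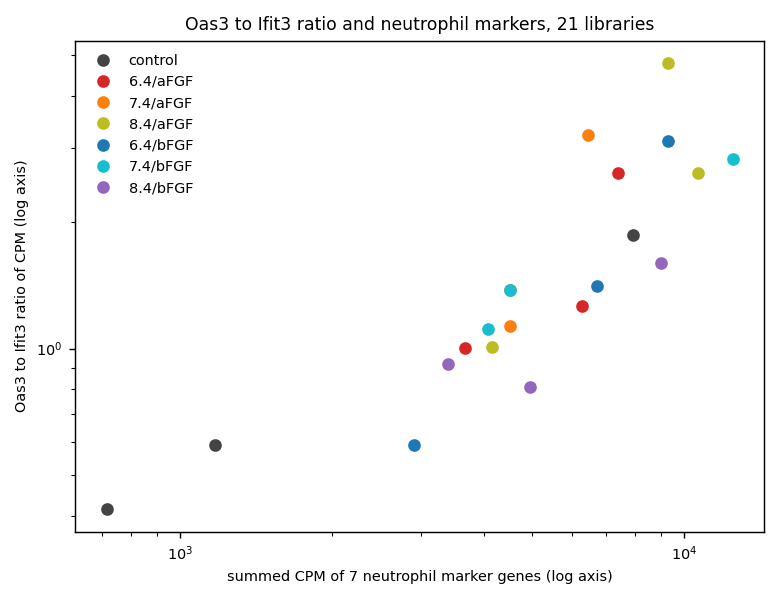
Ratio of Oas3 to Ifit3 CPM (vertical log axis) against the summed CPM of 7 neutrophil marker genes (horizontal log axis) in the 21 libraries, colored by group. The ratio runs from 0.414 to 4.78, and libraries with more neutrophil marker RNA lie higher within most groups.

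Among the other lists, the 6 plasmacytoid dendritic cell genes had a Pearson's r of -0.636 and a Spearman's rho of -0.608 with the ratio (permutation p = 0.0018 and 0.00394, adjusted p = 0.0072 and 0.0158). Without the 2 libraries farthest from the median, 7.4/aFGF replicates 3 and 1, r was -0.644. Most of that list's RNA came from Ly6d (132 to 219 CPM) and Tcf4 (74.7 to 136 CPM), which other skin cells also express, while the defining marker Siglech was at 1.41 to 10.7 CPM, highest in 7.4/aFGF replicate 1. The keratinocyte, fibroblast, macrophage and monocyte, T and NK cell, endothelial and skeletal muscle lists had r from -0.350 to 0.269, with adjusted p of 0.323 to 0.850.

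The libraries with the highest levels of the 10 genes also held the most T and NK cell marker RNA. The summed level of 9 T and NK cell genes was 211 CPM in 7.4/aFGF replicate 1 and 104 CPM in control replicate 2, and at most 56.6 CPM in the other libraries. Over the 21 libraries, Pearson's r with this sum was positive for all 10 genes, from 0.546 (Ifit3) to 0.724 (Oasl2). With group means removed it was 0.480 (Ifit3) to 0.724 (Isg15). These values are descriptions with no test. Ifng, the type II interferon, was at 109 counts in 7.4/aFGF replicate 1 and 157 in control replicate 2, at 31 in 7.4/aFGF replicate 3 and at 0 to 13 in the remaining 18. The markers Cd3e, Cd3d and Cd3g were above 0 in 21 of 21 libraries and highest in 7.4/aFGF replicate 1. The summed level of 8 macrophage and monocyte genes was also highest in 7.4/aFGF replicate 1 (8672 CPM), while control replicate 2 ranked 8 of 21 (6646 CPM). In 8.4/bFGF replicate 2, which was low in all 10 genes, the macrophage and monocyte sum (4440.5 CPM) and the T and NK cell sum (25.4 CPM) were the lowest of 21 libraries. The part of these cells in the levels was not tested.

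Type I interferon genes themselves were close to the limit of detection. Over the 21 libraries together Ifnb1 had 12 counts, Ifnk 11, Ifne 6, Ifnab 4 and Ifnz 21, of which 17 were in control replicate 2, and their differences between groups could not be measured at this depth. A count of 0 still allows up to 3 counts in a library. The receptor genes were well covered, with 137 to 235 CPM for Ifnar1, 102 to 181 CPM for Ifnar2, 157 to 340 CPM for Ifngr1 and 97.5 to 174 CPM for Ifngr2. Of 21 ligand and receptor genes on the list, 12 were in the files and 6 were tested between 6.4/aFGF and 7.4/aFGF. None was called there, and their median log2 fold change was -0.11.

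The other genes of the interferon system were read from lists chosen, as were the 10 genes, with earlier results of these data known. In 6.4/aFGF against 7.4/aFGF, 20 of 22 other antiviral effector genes had lower levels at pH 6.4, with a median log2 fold change of -0.67, and so did 14 of 14 interferon signalling genes (median -0.51), 10 of 11 nucleic acid sensors (median -0.43) and 5 of 5 Isg15 conjugation genes (median -0.68). None of these genes was called in that contrast. In 7.4/aFGF against 7.4/bFGF the medians of the same lists were 0.58, 0.63, 0.31 and 0.59, again with 0 genes called, and against control they were -0.32, -0.34, -0.36 and -0.54. The shifts of the lists thus had the signs of the 10 genes and were smaller.

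**Figure D5:**
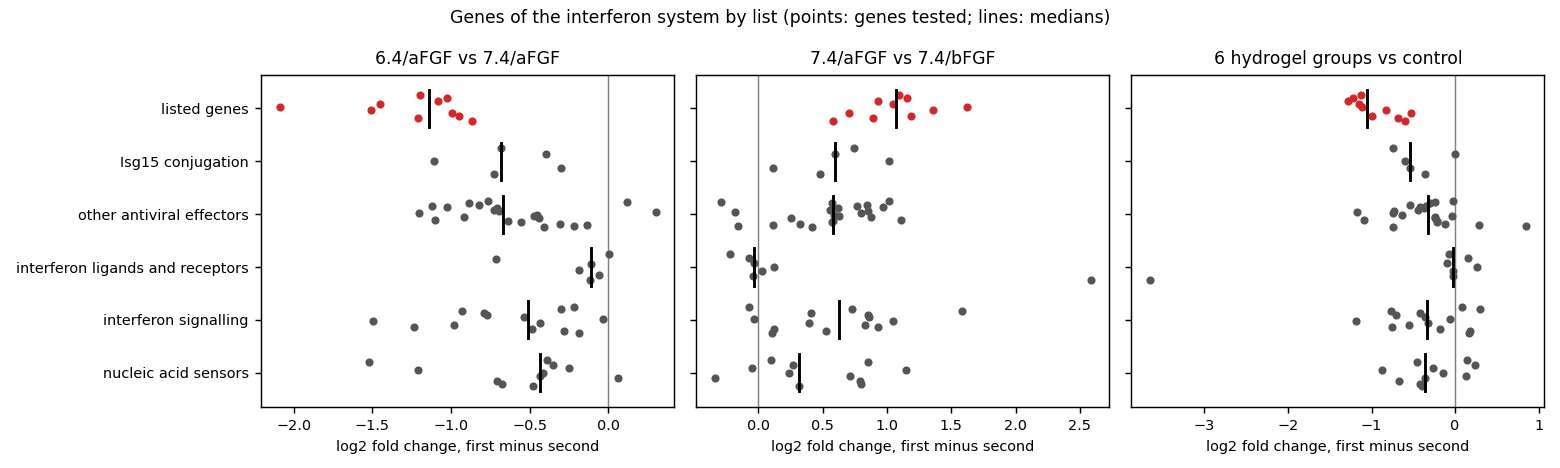
Log2 fold change (horizontal axis) of each tested gene (points) of the 10 listed genes and of 5 lists of the interferon system (rows), in 3 comparisons, with the median of each row (vertical bar). The median of the 10 genes lies farthest from 0 in each panel, while that of the ligands and receptors lies between -0.11 and -0.03.

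Over the 3 pH values, 3 of the 59 genes tested in these 5 lists (5.08%) were called, against 3.2% of all genes, and all 3 were higher with aFGF. Irf5, a transcription factor of interferon induction, had a log2 fold change of 0.65 (SE 0.13, edgeR adjusted p = 0.00901). Its means were 91.3, 132 and 105 CPM with aFGF and 79.0, 73.2 and 56.7 CPM with bFGF at pH 6.4, 7.4 and 8.4. Rtp4, an interferon-induced antiviral protein, had a log2 fold change of 0.71 (SE 0.20, edgeR adjusted p = 0.0355), and Dhx58, a regulator of the RNA sensors, one of 0.70 (SE 0.20, edgeR adjusted p = 0.0363). Without the 3 libraries of other tissues, an alternative chosen after seeing the data, Irf5 was still called (0.64, edgeR adjusted p = 0.0321), whereas Rtp4 (0.60, edgeR adjusted p = 0.0937) and Dhx58 (0.59, edgeR adjusted p = 0.0531) were not. Trim25, a ligase with a role in Isg15 conjugation, had 98.0 to 307 CPM and a log2 fold change of 0.51 with aFGF against bFGF (SE 0.14, edgeR adjusted p = 0.0319), which passed the adjusted p but lay under the fold needed for a call. Oas1a, a further Oas enzyme, had 25.9 to 116 CPM and a log2 fold change of 0.61 (edgeR adjusted p = 0.0865), and Ube2l6, the conjugating enzyme of Isg15, had 32.2 to 97.0 CPM and -0.10. Uba7, the activating enzyme of Isg15, had 26.9 to 84.5 CPM and a log2 fold change of 0.19, Herc6, its ligase in mice, had 14.2 to 58.6 CPM and 0.44 (edgeR adjusted p = 0.12), and Oas1g had 5.98 to 34.9 CPM and 0.50. Ifit3b, the close copy of Ifit3, was at 3.29 to 20.8 CPM, and its difference from control was -1.25 on the log2 scale (edgeR adjusted p = 0.131).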

How the data were processed

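RNA-seq libraries of skin wounds were made with a stranded mRNA kit. The authors deposited 1 table of raw read counts per gene symbol and 1 table of FPKM for each library. The submitters' processing notes name the build GRCm39, and the aligner and the counter are not given in the sources used here. The deposited FPKM values equal the counts scaled to gene length and library size for 13699 genes checked, and were used only to compare levels between genes.

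Groups came from the labels, which call the libraries biological replicates. Counts were tested with edgeR 4.0.16 in R 4.3.3 (quasi-likelihood test, TMM scaling, filter on low counts by group) over all genes, with Benjamini-Hochberg adjustment. Calls needed an adjusted p under 0.05 together with a difference of over 0.58 on the log2 scale, except in the test over 7 groups, which used the adjusted p. Comparisons of 2 groups used their 6 libraries, the interaction 12 and the others 21. SEs were taken from the fold change and F, and 95% intervals from the t distribution. CPM used TMM sizes, and log2 CPM a prior count of 2. Permutation tests (SciPy 1.17.1) were two-sided. The scripts were tested on simulated data.

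The 10 genes and all lists were chosen with earlier results of these data known. All 10 are named, as are the 10 genes most like their mean, the called genes of each list or, where none was called, its 4 most abundant, apart from 1 gene and the summary of its list, which are not reported here. Replicate numbers were checked for pairing: in 6.4/aFGF and 7.4/aFGF the deviations of same-numbered libraries from their group means had correlations of 0.103 to 0.265, each over 0.1, and in no other pair of groups were all over 0.1. Alternatives were DESeq2 1.42.0, other size factors, no filter, a replicate block, a fit over 21 libraries, and leaving out each library or the 3 with genes of other tissues. Counts of the 10 genes at an unadjusted p under 0.05 in these alternatives are given without the share over all genes. The hydrogels against control without control replicate 2 are the exception. Of 18806 symbols, 99.2% were in a RefSeq table (GRCm38.p6), used for gene order only. In 210 pairs of libraries at most 10.9% of genes had equal counts. Intervals cover the spread between libraries.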

Additional observations from a re-analysis of the deposited data

How the results depend on the processing

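With edgeR, 0 of the 10 genes were called with other size factors, with no filter, in a fit over 21 libraries and without the 3 libraries of other tissues, in each comparison where these were run. DESeq2 called 7 over the 7 groups, 3 in aFGF against bFGF over 3 pH, 2 each in 6.4/aFGF against 7.4/aFGF, 8.4/bFGF against 7.4/bFGF, 7.4/aFGF against 7.4/bFGF and the hydrogels against control, and 1 in 8.4/aFGF against 8.4/bFGF. Leaving out 1 library gave 0 to 2 calls over the 7 groups and in aFGF against bFGF over 3 pH, and 0 elsewhere. The cause was not tested.

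Leaving out 1 library, log2 fold changes of hydrogels against control ran from -0.88 to 0.21 for Oas2 and from -1.03 to 0.20 for Oas3, both turned without control replicate 2. In 8.4/aFGF against 8.4/bFGF they ran from -0.28 to 1.23 for Ifit1, -0.50 to 1.25 for Ifit1bl1, -1.11 to 0.33 for Ifit2 and -0.62 to 0.82 for Ifit3. For Ifit2 in aFGF against bFGF over 3 pH they ran from -0.11 to 0.39. Without the 3 libraries of other tissues, Ifit1, Ifit1bl1 and Ifit3 were at -0.50, -0.75 and -0.87 in 8.4/aFGF against 8.4/bFGF, and Ifit2 at -0.0875 in aFGF against bFGF over 3 pH.

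Over all pairs of groups, same-numbered libraries had correlations of -0.730 to 0.463, and 19 of 63 were over 0.1. In 35 of the 63, the same-numbered library correlated above the mean of the other numbers. The labels give only a replicate number in every group, 6.4/aFGF and 7.4/aFGF included, so no pairing of samples is stated. With the replicate block, 0 of the 10 genes were called in every comparison, and over all genes 10 were called over the 7 groups (18 without it), 2 in the hydrogels against control (1 without it) and 0 in 8.4/aFGF against 8.4/bFGF (1 without it).

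Over all genes, DESeq2 called 2030 over the 7 groups and 949 in 8.4/aFGF against 8.4/bFGF, where edgeR called 18 and 1. Leaving out 1 library gave 7 to 864 calls over the 7 groups, 0 to 278 in 6.4/bFGF against 7.4/bFGF (most without 7.4/bFGF replicate 3), 0 to 172 in 8.4/aFGF against 8.4/bFGF (most without 8.4/aFGF replicate 3), 0 to 1189 in the hydrogels against control and 269 to 714 in aFGF against bFGF. With 3 libraries a group, the spread between them limits each comparison.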
